A study of Homo sapiens with 24 samples.

Results

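The genes described here are 9 human ATP-binding cassette genes which, apart from ABCC8, are known for moving drugs and drug conjugates out of cells: ABCC1, ABCC2, ABCC3, ABCC4, ABCC5, ABCC8, ABCC10, ABCB1 and ABCG2. They were picked by symbol in a table of read counts for 14493 genes, and 8 of the 9 had a row. ABCB1, which encodes P-glycoprotein, had no row and was not analysed here. The cells were SKBR3, an established HER2-amplified human breast cancer line. RNA sequencing compared cells pushed into therapy-induced senescence (TIS) with untreated cells. TIS is a stop of division, partly reversible with some drugs, in large, metabolically active cells. There were 24 libraries in 8 groups of 3.

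Drug-treated cells were collected on day 7, after medium and drug had been renewed on day 3. ND-646, an inhibitor of acetyl-CoA carboxylase, and TVB-3166, an inhibitor of fatty acid synthase, were given at 250 nmol/L each, and the senescent state they give is called FASTIS. The other drugs were bleomycin at 10 µmol/L and doxorubicin at 10 nmol/L, which damage DNA, the CDK4/6 inhibitor palbociclib at 1 µmol/L and the Aurora kinase A inhibitor alisertib at 500 nmol/L. Untreated cells were collected on day 0 and on day 7. The labels name the day-3 renewal for every drug group but not for untreated day-7 cells. If those cells were not renewed, drug and renewal cannot be told apart in the comparisons with them. All 8 groups are of this same line with no engineered allele named, and 1 dose and 1 time were sampled per drug. The labels do not say whether the 3 libraries of a group came from separate cultures, so each p-value measures the spread between these libraries, which may be technical. Total counts per library ran from 29405121 to 44316330. Within 2 groups the first library stood apart over all genes, by a chi-square of the counts per gene between pairs of libraries. ND-646 replicate 1 gave 146 and 159 against the other ND-646 libraries, which gave 13.4 between them, and untreated day-0 replicate 1 gave 171 and 172, where the other day-0 libraries gave 18.3. Transporter calls that turn on either library are given with and without it. Several of the other genes named, among them NCR3LG1, GSS, GSTM4 and AHR, were not refitted with single libraries left out. The line's defining genes were in place: ERBB2 lay between 5125 and 8828 CPM (counts scaled to library size) in every library, and the luminal keratins KRT8, KRT18 and KRT19 were at 870.6 CPM or more, while ESR1, VIM and PTPRC had no row.

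ATP-binding cassette (ABC) proteins use ATP hydrolysis to move substrates across membranes. The ABCC proteins of this set, apart from ABCC8, mostly carry organic anions, and many of their substrates are conjugates with glutathione, glucuronate or sulfate. Export of the glutathione conjugates depends on the enzymes that supply and attach glutathione. ABCG2, the breast cancer resistance protein, is a half-transporter that works as a dimer and exports sulfated sterols, urate, porphyrins and many drugs. ABCC8 is the exception in this set: it encodes SUR1, the sulfonylurea receptor, which exports nothing and instead gates the potassium channel made by KCNJ11 in pancreatic beta cells and neurons. A transcript level does not show that the protein is on the membrane, and in bulk RNA fewer cells with a transcript cannot be told apart from less transcript per cell.

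In GRCh37, the build the study aligned to, ABCC1 lies at chr16:16042995-16237114 on the plus strand, ABCC2 at chr10:101542397-101612351 on the plus strand, ABCC3 at chr17:48712138-48769614 on the plus strand and ABCC4 at chr13:95672089-95953729 on the minus strand. ABCC5 lies at chr3:183637722-183735727 on the minus strand, ABCC8 at chr11:17414045-17498441 on the minus strand, ABCC10 at chr6:43395104-43418165 on the plus strand and ABCG2 at chr4:89011302-89152780 on the minus strand. None of the genes that overlap these 8 loci in the annotation had a row in the table. The overlapping annotations on the opposite strand include ABCC5-AS1, which shares 5082 bases with ABCC5. Whether the counting used strand is not given in the sources used here, so reads from such a partner cannot be told apart from reads of the transporter.

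RefSeq's promoter table, on GRCh38.p14, held an entry for 6 of the 9 genes, ABCB1 among them, and none was found for ABCC1, ABCC3 or ABCC8. The 250 bases before the start of ABCC2 and of ABCC4 are printed because these windows differ widely in base composition and the transporters, as the values below show, differed in which drugs they rose with. The ABCC2 window, chr10:99782390-99782639 on the plus strand, has a GC content of 45.6% with 1 CpG, and its capitals mark TATAAA at positions -236 to -231 from the start. The ABCC4 window, chr13:95301452-95301701 on the minus strand, has a GC content of 80.4% with 42 CpG, and its capitals mark TGACNNNGC, the core of the antioxidant response element, read on the opposite strand at -149 to -141.
ABCC2: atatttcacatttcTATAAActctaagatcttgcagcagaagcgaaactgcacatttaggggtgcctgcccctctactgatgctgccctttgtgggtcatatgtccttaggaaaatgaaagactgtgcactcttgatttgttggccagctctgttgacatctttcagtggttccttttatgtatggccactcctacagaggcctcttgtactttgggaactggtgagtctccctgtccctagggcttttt
ABCC4: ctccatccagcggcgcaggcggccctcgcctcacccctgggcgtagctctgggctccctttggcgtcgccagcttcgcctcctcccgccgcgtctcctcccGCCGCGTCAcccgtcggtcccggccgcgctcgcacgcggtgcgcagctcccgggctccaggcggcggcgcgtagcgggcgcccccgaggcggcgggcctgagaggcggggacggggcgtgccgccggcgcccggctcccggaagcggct

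Of 35116 RefSeq promoter windows of this length, 10.9% hold TGACNNNGC on either strand, 10.7% hold TATAAA and 42.6% hold the GC box GGGCGG. TGACNNNGC occurs in 2 of the 6 genes with an entry, where a match at any listed start of a gene counts. These are ABCC4 and ABCC10, where it lies at -143 to -135 from one of the listed starts. Some genes have several listed starts, as ABCG2 with 5. The count of genes therefore cannot be set against the 10.9% of single windows. ABCC2 has no TGACNNNGC in its window, but it does hold the looser TGANNNNGC at -173 to -165, as do 35.2% of windows. Every match to TGACNNNGC is also a match to TGANNNNGC. The ABCC4 window also holds GCGTG, the core of the xenobiotic response element, at -117 to -113 on the opposite strand and at -34 to -30, and GCGTG occurs in 32.2% of windows. These matches are descriptions of letters in a window.

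Set against each other per kilobase of annotated exon, the transporters fell into a high, a middle and a low set. ABCC5, which exports cyclic nucleotides and nucleotide-analogue drugs, averaged 29.5 RPKM (counts scaled to library size and to kilobases of exon) over the 8 groups, and ABCC1, the broad exporter of glutathione conjugates, 22.4 RPKM. ABCC2, the apical conjugate exporter, followed at 10.2 RPKM and ABCG2 at 9.14 RPKM. ABCC3, ABCC4 and ABCC10 lay within a narrow band at 2.19, 2.16 and 2.09 RPKM. ABCC8 averaged 0.026 RPKM, from 9 to 56 reads per library. When the longest transcript replaced the exon union as the length, ABCC10 and ABCC4 exchanged places and the other 6 kept theirs. The summed RPKM of the 8 transporters was 58.3 ± 7.16 (SD, n = 3) in untreated day-0 cells and 64.3 ± 2.29 in untreated day-7 cells. It was 94.8 ± 12.2 in palbociclib, 89.9 ± 11.8 in TVB-3166, 89.5 ± 9.05 in alisertib, 84.0 ± 10.6 in doxorubicin, 76.8 ± 20.9 in ND-646 and 63.7 ± 8.59 in bleomycin TIS cells. These sums are dominated by the abundant ABCC5 and ABCC1 and carry no test.

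**Figure D1:**
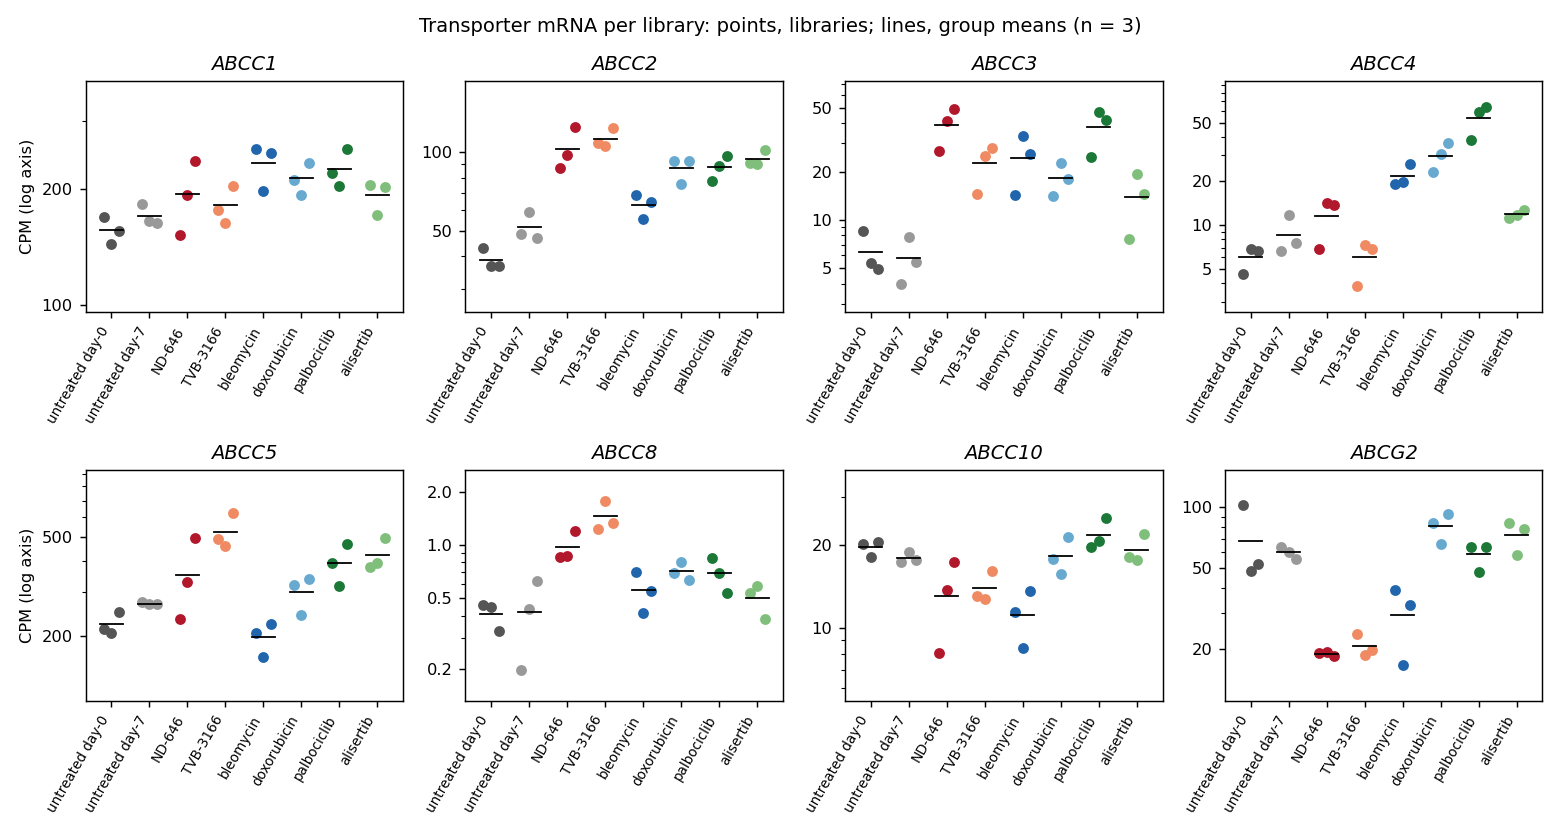
Expression of 8 drug efflux transporters in CPM on a log axis, for each library (points, in the order replicate 1 to 3) and group mean (line), in the 8 groups of 3 libraries. ABCC3 was above its untreated level in every drug group mean, ABCC4 spanned 6.01 CPM in TVB-3166 to 53.6 CPM in palbociclib, and ABCG2 was lowest in ND-646, TVB-3166 and bleomycin.

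ABCC3, a basolateral exporter of bile salts and glucuronides, was the only transporter of the 8 called higher with all 6 drugs against both untreated groups. In untreated day-0 libraries it measured 8.57, 5.37 and 4.91 CPM, and in untreated day-7 libraries 3.99, 7.85 and 5.43 CPM. With ND-646 it measured 26.8, 41.3 and 49.0 CPM, and with palbociclib 24.6, 47.4 and 42.1 CPM. All 6 of these treated libraries lay above every untreated library. TVB-3166 libraries measured 14.6, 25.2 and 28.1 CPM, bleomycin libraries 14.4, 33.2 and 25.6 CPM, and doxorubicin libraries 14.2, 22.8 and 18.0 CPM. Alisertib libraries, at 7.58, 19.4 and 14.6 CPM, were the lowest of the treated groups, and their first library lay inside the untreated range. Replicate 1 was the lowest library of ABCC3 in 7 of the 8 groups, and untreated day-0, where it was the highest, was the exception.

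Against untreated day-0 cells, ABCC3 rose by a log2 fold-change of 2.62 ± 0.29 (SE) with ND-646 (6.16-fold, edgeR adjusted p = 0.000261), and by 2.59 ± 0.26 with palbociclib (6.01-fold, edgeR adjusted p = 2.76e-05). The rises were 1.96 ± 0.31 with bleomycin, 1.85 ± 0.26 with TVB-3166, 1.55 ± 0.23 with doxorubicin and 1.14 ± 0.32 with alisertib, where the edgeR adjusted p was 0.0171. Against untreated day-7 cells the same drugs gave 2.76 with ND-646, 2.74 with palbociclib, 2.11 with bleomycin, 1.99 with TVB-3166, 1.70 with doxorubicin and 1.29 with alisertib, and every one passed the threshold. The comparisons with a given control share its 3 libraries. With palbociclib, 1.47% of all genes tested had a larger absolute log2 fold-change against day-0 than ABCC3, and with ND-646 2.46% did. The alisertib rise against day-0 of ABCC3 lost its call when untreated day-0 replicate 2 or 3 or alisertib replicate 2 or 3 was left out (log2 fold-change 1.05, 0.99, 0.82 and 1.10, edgeR adjusted p between 0.0590 and 0.0829). Against day-7 the call was lost without untreated day-7 replicate 3 (1.26), alisertib replicate 2 (0.97) or alisertib replicate 3 (1.26). Calls with the other 5 drugs held with every single library left out.

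ABCC4, which exports cyclic nucleotides, prostaglandins and nucleotide-analogue drugs, had the widest spread of the 8, with a ratio of 8.91 between its highest and lowest group mean. It was at 4.65, 6.81 and 6.65 CPM in untreated day-0 libraries and at 6.64, 11.6 and 7.51 CPM in untreated day-7 libraries. Palbociclib libraries stood far above these at 37.8, 58.9 and 64.1 CPM. Doxorubicin libraries measured 23.0, 30.4 and 36.0 CPM, and bleomycin libraries 19.0, 19.8 and 25.9 CPM, with all 6 above every untreated, ND-646, TVB-3166 and alisertib library. Alisertib gave 11.1, 11.6 and 12.7 CPM and ND-646 6.81, 14.1 and 13.6 CPM. TVB-3166 gave 3.81, 7.34 and 6.88 CPM, inside the untreated range apart from its first library. Replicate 1 was the lowest library of ABCC4 in 8 of the 8 groups.

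Against untreated day-0 cells, ABCC4 rose by 3.15 ± 0.21 on the log2 scale with palbociclib (8.88-fold, edgeR adjusted p = 2.75e-06), and 0.677% of all genes tested had a larger absolute change there. It rose by 2.32 ± 0.20 with doxorubicin, 1.84 ± 0.20 with bleomycin and 0.97 ± 0.17 with alisertib. With ND-646 the rise of 0.92 ± 0.31 was near the threshold (edgeR adjusted p = 0.0407), and the call was kept in 1 of 6 fits that each left out a single library, the one without ND-646 replicate 1. The others gave log2 fold-changes for ABCC4 of 0.76, 1.01 and 0.99 without untreated day-0 replicates 1, 2 and 3, and 0.75 and 0.78 without ND-646 replicates 2 and 3, with edgeR adjusted p up to 0.140, and scaling by total counts alone (0.83) or keeping low-count genes (0.91) also ended the call. TVB-3166 gave 0.00 with a 95% interval of -0.55 to 0.55. Against untreated day-7 cells ABCC4 rose with palbociclib (2.66), doxorubicin (1.82) and bleomycin (1.34), whereas alisertib gave 0.48 (edgeR adjusted p = 0.0942), ND-646 0.42 and TVB-3166 -0.51. In alisertib against day-7, where libraries of the same number deviated together, a replicate block brought ABCC4 to 0.51 with an edgeR adjusted p of 0.0192, and leaving out untreated day-7 replicate 2 gave 0.75 with 0.00504. Leaving out ND-646 replicate 1 brought the ND-646 difference in ABCC4 against day-7 to 0.68 with an edgeR adjusted p of 0.0200.

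ABCC2 was called higher with all 6 drugs against untreated day-0 cells and with 5 of the 6 against untreated day-7 cells. It measured 43.0, 36.6 and 36.8 CPM on day 0 and 48.8, 59.0 and 46.8 CPM on day 7 without drug. The FASTIS group means were highest, from libraries at 87.3, 97.4 and 125 CPM with ND-646 and 109, 106 and 125 CPM with TVB-3166, though the first ND-646 library lay below all 3 alisertib libraries. Alisertib gave 91.3, 90.3 and 102 CPM, palbociclib 77.7, 88.5 and 96.5 CPM and doxorubicin 92.9, 75.4 and 92.5 CPM. Bleomycin libraries were the lowest of the treated ones at 68.5, 55.3 and 64.7 CPM, and the second of them lay inside the untreated day-7 range. Against day-0 the ABCC2 log2 fold-changes were 1.55 ± 0.11 with TVB-3166 (edgeR adjusted p = 1.25e-06), 1.40 ± 0.18 with ND-646, 1.28 ± 0.10 with alisertib, 1.18 ± 0.11 with doxorubicin, 1.17 ± 0.11 with palbociclib and 0.70 ± 0.12 with bleomycin. Against day-7 they were 1.14, 1.00, 0.89, 0.78, 0.77 and 0.30 in the same order, and the bleomycin value did not pass (edgeR adjusted p = 0.0645). It passed without untreated day-7 replicate 2 (0.40, edgeR adjusted p = 0.0282) or bleomycin replicate 2 (0.38, edgeR adjusted p = 0.0288).

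ABCC1 showed small shifts at a high level. Its group means ran from 156 ± 12.5 CPM in untreated day-0 cells to 233 ± 30.6 CPM with bleomycin, a ratio of 1.49, the narrowest of the 8. It rose against day-0 with bleomycin (0.58 ± 0.12, edgeR adjusted p = 0.00329), palbociclib (0.53 ± 0.11), doxorubicin (0.46 ± 0.10) and alisertib (0.30 ± 0.10, edgeR adjusted p = 0.0344). ND-646 gave 0.30 with a 95% interval of -0.12 to 0.71 and TVB-3166 0.22 with -0.02 to 0.45. Against day-7 ABCC1 rose with bleomycin (0.46), palbociclib (0.41) and doxorubicin (0.34). The alisertib call against day-0 was lost without untreated day-0 replicate 2 (0.26) or 3 (0.30) and without alisertib replicate 1 (0.26) or 3 (0.26). The doxorubicin call against day-7 was lost without untreated day-7 replicate 3 (0.30). Without ND-646 replicate 1 the ND-646 difference in ABCC1 passed against day-0 (0.45, edgeR adjusted p = 0.0109) and day-7 (0.32, edgeR adjusted p = 0.0202), and without untreated day-0 replicate 1 TVB-3166 passed at 0.28.

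ABCC5 was highest with TVB-3166, at 493, 461 and 623 CPM, against 213, 205 and 249 CPM in untreated day-0 and 273, 268 and 268 CPM in untreated day-7 libraries. All 3 TVB-3166 libraries lay above the untreated ones. ND-646 libraries were spread widely, at 234, 329 and 496 CPM, and the first lay below the untreated day-7 range. Against day-0 ABCC5 rose with TVB-3166 (1.24 ± 0.13, edgeR adjusted p = 1.86e-05), alisertib (0.92 ± 0.12), palbociclib (0.82 ± 0.14) and doxorubicin (0.45 ± 0.14, edgeR adjusted p = 0.0203), whereas ND-646 gave 0.66 ± 0.26 (edgeR adjusted p = 0.0745) and bleomycin -0.17 ± 0.13. Against day-7 it rose with TVB-3166 (0.97), alisertib (0.66) and palbociclib (0.55) and fell by 0.44 with bleomycin (edgeR adjusted p = 0.0120). Group means were 422 ± 63.4 CPM with alisertib, 392 ± 74.6 with palbociclib, 300.3 ± 51.7 with doxorubicin and 198 ± 30.6 with bleomycin. Without ND-646 replicate 1, the ND-646 differences in ABCC5 were 0.88 against day-0 and 0.60 against day-7 and passed (edgeR adjusted p = 0.00159 and 0.00399). The doxorubicin call against day-0 was lost without untreated day-0 replicate 2 (0.39) and without doxorubicin replicate 1 (0.38) or 3 (0.36), and against day-7 doxorubicin passed without doxorubicin replicate 2 (0.31).

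ABCC10, an exporter of taxanes and nucleoside drugs, was the ABCC gene that fell against day-0 cells. Untreated libraries held 17.4 to 20.6 CPM. Bleomycin libraries held 11.4, 8.40 and 13.7 CPM and TVB-3166 libraries 13.0, 12.7 and 16.2 CPM, with no overlap with the untreated ones. It fell by 0.81 with bleomycin against day-0 (SE 0.18, edgeR adjusted p = 0.00458) and by 0.68 against day-7, and it fell by 0.49 with TVB-3166 against day-0 (edgeR adjusted p = 0.00831) and by 0.36 against day-7 (edgeR adjusted p = 0.0255). The ND-646 libraries, at 8.10, 13.8 and 17.3 CPM, gave -0.60 against day-0 with an edgeR adjusted p of 0.102. Doxorubicin, palbociclib and alisertib gave -0.09, 0.15 and -0.03 against day-0. The TVB-3166 call against day-7 for ABCC10 was lost without untreated day-7 replicate 2 (-0.33) or 3 (-0.38) and without TVB-3166 replicate 1 (-0.32) or 2 (-0.30). ND-646 passed against day-0 without ND-646 replicate 3 (-0.86), and palbociclib passed against day-7 without palbociclib replicate 1 (0.36).

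ABCG2 was lower in both FASTIS groups and in bleomycin TIS cells. Its untreated day-0 libraries measured 102, 48.6 and 52.6 CPM, the first standing apart from the others. Its untreated day-7 libraries measured 63.9, 60.3 and 55.3 CPM. With ND-646 it measured 19.0, 19.3 and 18.4 CPM, the tightest group of the gene, and with TVB-3166 23.8, 18.6 and 19.8 CPM. Every FASTIS library lay under every untreated library. Bleomycin gave 39.0, 16.6 and 32.8 CPM, also under every untreated library and spread more widely. Doxorubicin gave 83.7, 66.0 and 93.2 CPM, alisertib 83.5, 58.0 and 78.3 CPM and palbociclib 63.6, 48.0 and 63.8 CPM, in or near the untreated range. Against day-0 ABCG2 fell by 1.86 on the log2 scale with ND-646 (SE 0.28, edgeR adjusted p = 0.00115), by 1.71 with TVB-3166 (SE 0.24, edgeR adjusted p = 0.000153) and by 1.20 with bleomycin (SE 0.33, edgeR adjusted p = 0.0144). Against day-7 it fell by 1.67, 1.53 and 1.01, so the FASTIS levels were 0.314-fold and 0.347-fold of the day-7 level. It rose with doxorubicin against day-7 (0.46 ± 0.12, edgeR adjusted p = 0.00674).

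The ABCG2 values against day-0 cells rested in part on the untreated day-0 replicate 1 library. Without it, ABCG2 fell by 1.44 with ND-646, by 1.29 with TVB-3166 and by 0.79 with bleomycin (edgeR adjusted p = 0.0448), and it was higher with doxorubicin (0.68, edgeR adjusted p = 0.00220) and alisertib (0.54, edgeR adjusted p = 0.00503), which had given 0.27 and 0.11 with it. The palbociclib difference went from -0.22 to 0.21 without a call in either case. Alisertib against day-7 gave 0.31 (edgeR adjusted p = 0.0989), which passed with a replicate block (0.29, edgeR adjusted p = 0.0304) and without alisertib replicate 2 (0.45).

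ABCC8 had few reads, and its highest levels were in the FASTIS groups. TVB-3166 libraries measured 1.24, 1.77 and 1.34 CPM and ND-646 libraries 0.86, 0.86 and 1.19 CPM. Untreated day-0 libraries measured 0.46, 0.45 and 0.33 CPM and untreated day-7 libraries 0.20, 0.43 and 0.62 CPM. The other 12 treated libraries lay between 0.38 and 0.84 CPM, all below the FASTIS libraries. Against day-0 ABCC8 rose by 1.81 ± 0.31 with TVB-3166 (3.52-fold, edgeR adjusted p = 0.000567) and by 1.22 ± 0.34 with ND-646 (2.34-fold, edgeR adjusted p = 0.0210). Against day-7 TVB-3166 gave a rise of 1.83 ± 0.38 and ND-646 1.23 ± 0.43, the latter with an edgeR adjusted p of 0.0569. Doxorubicin gave 0.80 and palbociclib 0.75 against day-0 (edgeR adjusted p = 0.0558 and 0.0843), and bleomycin 0.44 and alisertib 0.27. Against day-7 these 4 drugs gave 0.83, 0.77, 0.45 and 0.30, none called. The doxorubicin value passed with low-count genes kept in the table (0.78, edgeR adjusted p = 0.0375), and ND-646 against day-7 passed by DESeq2 (1.22, adjusted p = 0.0490). The ND-646 call against day-0 for ABCC8 was lost without untreated day-0 replicate 2 (1.28) or 3 (1.08) or ND-646 replicate 3 (1.04), and against day-7 ND-646 passed without ND-646 replicate 1 (1.32).

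KCNJ11, the channel partner of ABCC8, is its neighbour: 3166 bases separate them on the minus strand of chromosome 11, with 0 annotated genes in between. KCNJ11 averaged 25.9 ± 1.27 CPM with ND-646 and 24.8 ± 1.85 with TVB-3166, against 11.7 ± 1.38 in untreated day-0 and 12.3 ± 0.95 in untreated day-7 cells. It rose by 1.13 ± 0.16 with ND-646 (edgeR adjusted p = 0.000760) and by 1.08 ± 0.13 with TVB-3166 (edgeR adjusted p = 4.07e-05) against day-0, and by 1.06 and 1.01 against day-7. With the other 4 drugs it gave between -0.14 and 0.17 against day-0, none called, and FASTIS drugs exceeded the other drugs by 1.12 ± 0.08 (edgeR adjusted p = 3.33e-10). KCNJ11 overlaps NCR3LG1 on the opposite strand over 12170 bases, and its values are given beside it. NCR3LG1 rose with TVB-3166 (0.48, edgeR adjusted p = 0.0210) and doxorubicin (0.67) against day-0 and fell by 0.55 with palbociclib. With ND-646 it gave 0.46 (edgeR adjusted p = 0.386), from libraries at 12.4, 34.6 and 46.4 CPM. The first of these is the ND-646 library that stood apart over all genes. It was also higher in untreated day-7 than in day-0 cells (0.73, edgeR adjusted p = 0.0365), and averaged 37.1 ± 2.18 CPM in untreated day-7 cells, above its mean in the FASTIS groups. The other KATP channel genes, KCNJ8 and ABCC9, had no row.

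**Figure D2:**
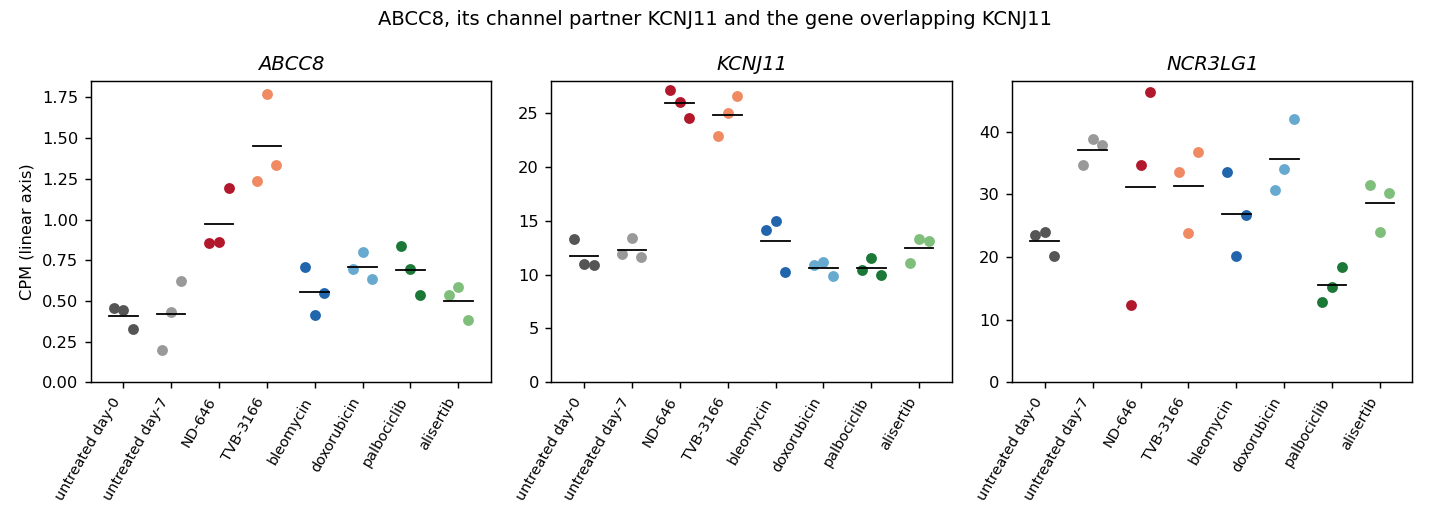
CPM on linear axes for ABCC8, its channel partner KCNJ11 and NCR3LG1, which overlaps KCNJ11, per library (points) and group mean (line), 3 libraries in each of 8 groups. ABCC8 and KCNJ11 were highest in the ND-646 and TVB-3166 libraries, KCNJ11 at 22.8 to 27.1 CPM there, while NCR3LG1 was highest on average in untreated day-7 cells.

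Counted by drug, changed transporters were mostly higher. Against untreated day-0 cells, ND-646 changed 5 of 8, where 37.9% of all genes tested were called: 4 rose (background 19.1% higher) and 1 fell (18.8% lower). TVB-3166 changed 6 against a background of 55.1%, with 4 up (27.4%) and 2 down (27.7%). Bleomycin changed 6 against a background of 49.4%, with 4 up (24.1%) and 2 down (25.3%). Doxorubicin changed 5 against 48.4%, palbociclib 5 against 53.2% and alisertib 5 against 37.3%, and all of these were up, where 23.7%, 26.0% and 17.7% of all genes tested were called higher and 24.8%, 27.2% and 19.6% lower. The counts in either direction are thus near the background or modestly above it, and the counts of rises stand further above theirs. The transporters were chosen with earlier results of these data known and the drugs share the same control libraries. Whether the excess of rises goes beyond that choice was not tested. The median log2 fold-change of the 8 was 0.79 with ND-646, 0.73 with TVB-3166, 0.51 with bleomycin, 0.63 with doxorubicin, 0.78 with palbociclib and 0.61 with alisertib, while the median over all genes tested lay between -0.01 and 0.02.

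Against untreated day-7 cells, ND-646 changed 3 of 8 against a background of 34.2%, with 2 up (17.2%) and 1 down (17.1%). TVB-3166 changed 6 against 51.5%, with 4 up (25.4%) and 2 down (26.1%), and bleomycin 6 against 45.6%, with 3 up (22.4%) and 3 down (23.2%). Doxorubicin changed 5 against 43.4%, palbociclib 5 against 44.8% and alisertib 3 against 19.0%, again all up, where 21.9%, 22.0% and 9.55% of all genes tested were called higher and 21.5%, 22.9% and 9.49% lower. Over all 48 pairings of a transporter with a drug, 21 were called higher and 5 lower against both controls, where 15.8% and 16.6% of all pairings of a tested gene with a drug were. The share of all genes called was not taken in the refits that follow, so their counts have no background. Without ND-646 replicate 1, the count for ND-646 went from 3 to 7 against day-7 and from 5 to 7 against day-0. With a replicate block, the count for alisertib against day-7 went from 3 to 5. For ND-646 against day-0 the count went from 5 to 3 without untreated day-0 replicate 2 or 3, and for alisertib against day-0 from 5 to 3 without untreated day-0 replicate 2 or 3 or alisertib replicate 3. In a fit to all 24 libraries, which shares 1 estimate of each gene's spread over all groups, 7 calls did not pass: ABCC1 and ABCG2 with doxorubicin against day-7 (0.32 and 0.44), ABCC10 with TVB-3166 against day-7 (-0.37), ABCC5 with bleomycin (-0.45) and alisertib (0.65) against day-7, ABCC5 with doxorubicin against day-0 (0.43) and ABCC1 with alisertib against day-0 (0.30). The same fit gained 4 calls: ABCC5 (0.67, edgeR adjusted p = 0.00815) and ABCC10 (-0.59, edgeR adjusted p = 0.0180) with ND-646 against day-0, ABCC8 with ND-646 against day-7 (1.25, edgeR adjusted p = 0.00350) and ABCC4 in TVB-3166 against ND-646 (-0.94, edgeR adjusted p = 0.0423).

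The study's kind of rule was a change of at least 2-fold at an unadjusted p under 0.05. Against day-0 it took in 4 of the 8 with ND-646 (20.7% of all genes tested), 5 with TVB-3166 (17.6%), 3 with bleomycin (18.8%), 3 with doxorubicin (12.9%), 3 with palbociclib (16.7%) and 2 with alisertib (7.90%), and 0 in untreated day-7 cells (1.99%). Against day-7 it took in 3 with ND-646 (17.4%), 4 with TVB-3166 (13.4%), 3 with bleomycin (14.1%), 2 with doxorubicin (8.77%), 2 with palbociclib (11.2%) and 1 with alisertib (3.27%). ABCC3 was in every one of these 12 drug lists, and ABCC1 and ABCC10 were in none.

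**Figure D3:**
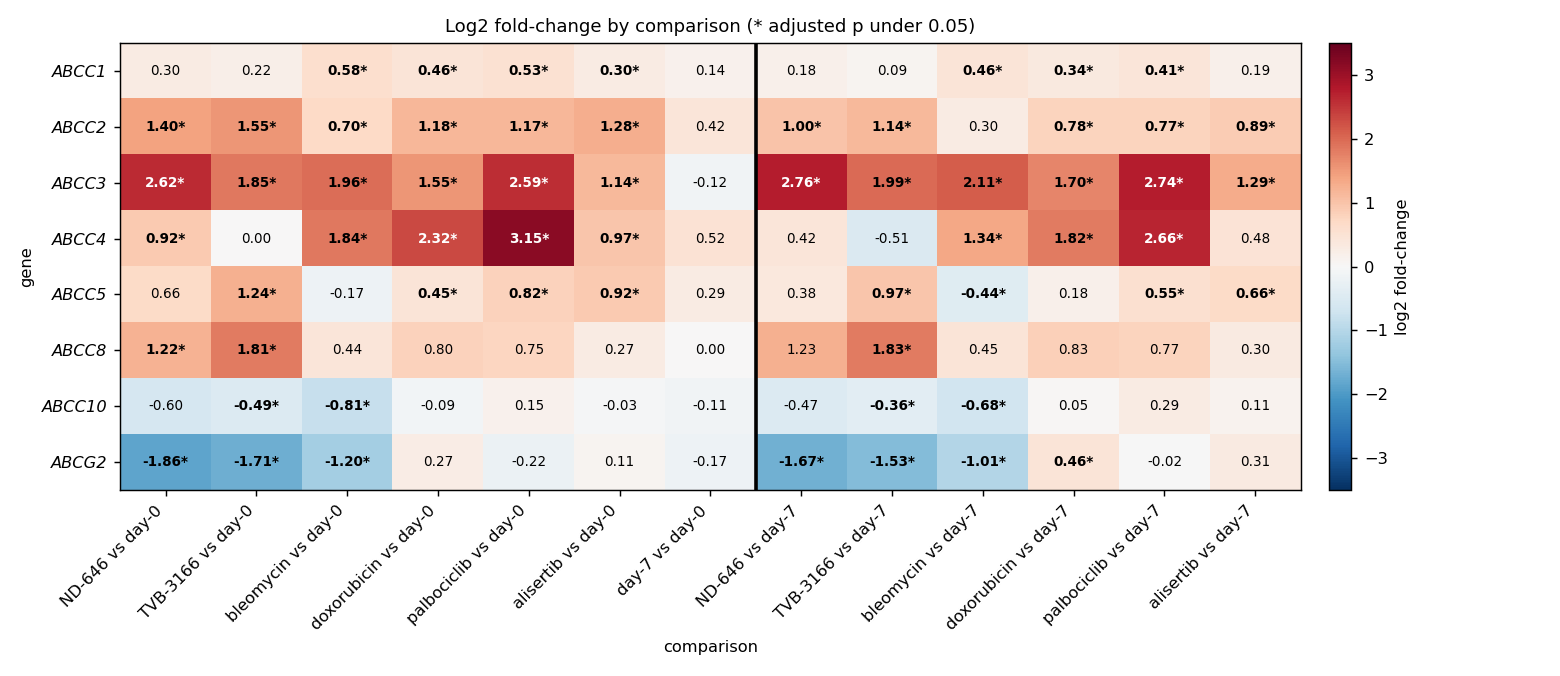
Log2 fold-changes of the 8 transporters (rows) in 13 comparisons (columns), with untreated day-0 cells as control to the left of the black line and untreated day-7 cells to the right; colour and number give the change and an asterisk marks an edgeR adjusted p under 0.05. The ABCC3 row is called higher with every drug on either side, and the ABCG2 row is lower with ND-646, TVB-3166 and bleomycin.

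A week in culture without drug moved 0 of the 8 past the threshold, where 0.587% of all genes tested were called by edgeR, 0.389% higher and 0.198% lower. At an unadjusted p under 0.05, ABCC2 (0.42 ± 0.12, edgeR adjusted p = 0.0908) and ABCC5 (0.29 ± 0.10, edgeR adjusted p = 0.120) were higher on day 7, 2 of the 8, where 12.2% of all genes tested were higher at that threshold. ABCC4 gave 0.52 (edgeR adjusted p = 0.210), ABCC1 0.14, ABCC8 0.00, ABCC10 -0.11, ABCC3 -0.12 and ABCG2 -0.17. DESeq2 called 1 of the 8, ABCC2 at 0.41 (DESeq2 adjusted p = 0.0320), and its share over all genes was not taken.

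Between the FASTIS drugs, edgeR called 0 of the 8, where 0.717% of all genes tested were called (0.520% higher, 0.198% lower), and DESeq2 also called 0. The 2-fold rule took in 0 of them as well, against 3.14% of all genes. At an unadjusted p under 0.05, ABCC3 (-0.78 ± 0.29) and ABCC4 (-0.93 ± 0.34) were lower with TVB-3166 than with ND-646, 2 of the 8, where 7.20% of all genes tested were lower at that threshold. In this pair of groups libraries with the same number deviated together, and with a replicate block ABCC3 (-0.79, edgeR adjusted p = 0.0300) and ABCC4 (-0.91, edgeR adjusted p = 0.0419) passed. Both also passed without ND-646 replicate 1, at -0.99 and -1.19. The 95% intervals for ABCC2 (-0.23 to 0.51) and ABCG2 (-0.18 to 0.47) leave out changes as large as those against untreated cells. That for ABCC8 (-0.08 to 1.24) takes in its changes with ND-646 (1.22 and 1.23) but not those with TVB-3166 (1.81 and 1.83). ABCC5 gave 0.58 (edgeR adjusted p = 0.362), ABCC10 0.10 and ABCC1 -0.09.

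The FASTIS drugs together differed from the other 4 drugs in 6 of the 8 transporters, where 51.0% of all genes tested were called. Of these 3 were higher (background 26.3%) and 3 lower (24.7%), and 2 met the 2-fold rule (7.10%). ABCC4 was lower by 1.60 on the log2 scale (log2 fold-change -1.60 ± 0.18, edgeR adjusted p = 2.35e-07) and ABCG2 likewise (-1.51 ± 0.17, edgeR adjusted p = 1.99e-07), and 1.56% and 1.90% of all genes tested had a larger absolute change. ABCC8 was higher by 0.96 ± 0.19 (edgeR adjusted p = 0.000209), ABCC5 by 0.45 ± 0.12 and ABCC2 by 0.40 ± 0.08, and ABCC10 gave -0.34 ± 0.13 (edgeR adjusted p = 0.0277). ABCG2 overlapped between the sets, since its bleomycin libraries reached down to 16.6 CPM, and ABCC8 did not overlap. ABCC3 (0.43, edgeR adjusted p = 0.0945) and ABCC1 (-0.20, edgeR adjusted p = 0.0524) did not pass. With a replicate block both passed, ABCC3 at 0.45 and ABCC1 at -0.20 (edgeR adjusted p = 0.0147 and 0.0177). Whether replicate numbers pair libraries across these groups was not checked. ABCC1 also passed without ND-646 replicate 3, TVB-3166 replicate 3 or replicate 2 of bleomycin, doxorubicin, palbociclib or alisertib (-0.28 to -0.22), and ABCC3 without replicate 1 of ND-646 or TVB-3166 or alisertib replicate 2 (0.51 to 0.55). ABCC10 lost its call without ND-646 replicate 1 (-0.22), TVB-3166 replicate 1 (-0.32) or 2 (-0.31) or bleomycin replicate 3 (-0.30), and ABCC5 lost its call when libraries were scaled by total counts alone (0.32, edgeR adjusted p = 0.0634). Single drugs did not all differ: in the fit to all 24 libraries, ABCC4 with alisertib exceeded ND-646 by 0.03 (edgeR adjusted p = 0.936), and ABCG2 with bleomycin exceeded ND-646 by 0.64 and TVB-3166 by 0.51 (edgeR adjusted p = 0.0657 and 0.149). For ABCC2 and for ABCC5, ND-646 passed against bleomycin alone of the other 4 drugs. For ABCC8, ND-646 passed against alisertib alone, whereas TVB-3166 passed against all 4. For ABCC10, TVB-3166 passed against palbociclib alone and ND-646 against palbociclib and alisertib. The ABCC10 mean with bleomycin (11.2 CPM) lay below those with ND-646 (13.1 CPM) and TVB-3166 (14.0 CPM).

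The DNA-damaging drugs differed from the kinase inhibitors in 3 of the 8, all lower with DNA damage, where 32.7% of all genes tested were called, 16.2% higher and 16.5% lower. None met the 2-fold rule, which took in 4.38% of all genes. ABCC5 was lower (log2 fold-change -0.74 ± 0.14, edgeR adjusted p = 0.000491), as were ABCC10 (-0.52 ± 0.14, edgeR adjusted p = 0.00733) and ABCC2 (-0.30 ± 0.09, edgeR adjusted p = 0.0173). Within these classes, bleomycin lay below both kinase inhibitors for all 3 genes and doxorubicin passed against neither. Palbociclib exceeded bleomycin by 0.99 in ABCC5, 0.97 in ABCC10 and 0.48 in ABCC2, and alisertib by 1.09, 0.79 and 0.59 (edgeR adjusted p up to 0.00842). Over doxorubicin, palbociclib gave 0.38, 0.26 and 0.01 and alisertib 0.49, 0.07 and 0.12 (edgeR adjusted p from 0.119 up). ABCC4 gave 0.01 with a 95% interval of -0.38 to 0.40, although its levels differed within each class, with palbociclib above doxorubicin and bleomycin above alisertib. ABCG2 gave -0.42 (edgeR adjusted p = 0.0745), which passed with a replicate block (-0.44, edgeR adjusted p = 0.0134) and without bleomycin replicate 1 (-0.55). Pairing by replicate number was not checked for this comparison either. ABCC2 lost its call without bleomycin replicate 2 (-0.26), doxorubicin replicate 2 (-0.25) or palbociclib replicate 3 (-0.26). ABCC1 gave 0.09, ABCC8 0.10 and ABCC3 -0.12, none called.

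**Figure D4:**
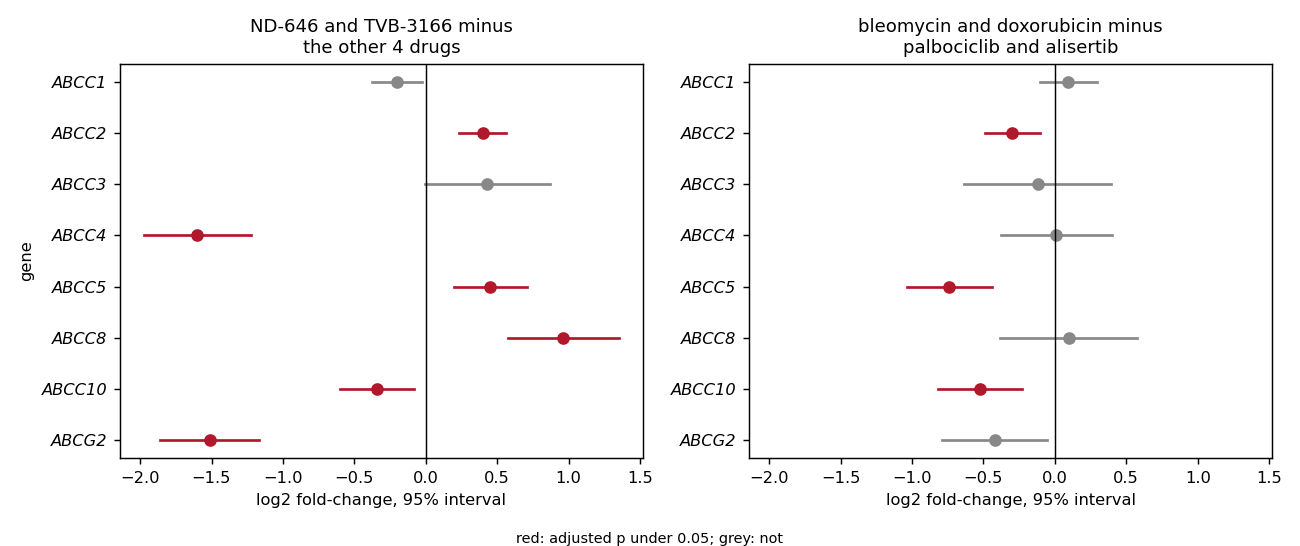
Log2 fold-changes with 95% intervals for the 8 transporters between drug classes, red where the edgeR adjusted p was under 0.05: left, ND-646 and TVB-3166 minus the other 4 drugs; right, bleomycin and doxorubicin minus palbociclib and alisertib. ABCC4 and ABCG2 lie far to the left in the first panel at -1.60 and -1.51, and ABCC8 to the right at 0.96.

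Ordered by group mean, few neighbours differed beyond the spread of their libraries: 5 of 56 neighbouring pairs over the 8 genes passed in the fit to all 24 libraries. For ABCC4 palbociclib exceeded doxorubicin (0.85, edgeR adjusted p = 0.0338) and bleomycin exceeded alisertib (0.87, edgeR adjusted p = 0.0153). For ABCG2 palbociclib exceeded bleomycin (0.99, edgeR adjusted p = 0.00546), the step between an upper set of 5 groups and a lower set of 3. For ABCC3 the step lay between alisertib and untreated day-0 cells (1.14, edgeR adjusted p = 0.0229), and for ABCC2 between doxorubicin and bleomycin (0.47, edgeR adjusted p = 0.0188). ABCC1, ABCC5, ABCC8 and ABCC10 had no such step. Of the 28 pairs of groups, 21 differed for ABCC4, 18 for ABCC2, 16 for ABCC3, 15 for ABCG2, 12 for ABCC5, 10 for ABCC10, 9 for ABCC8 and 5 for ABCC1.

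Over the 24 libraries, the genes whose log2 levels ran closest to each transporter were listed by Pearson correlation. This is a description with no test, since the points share 8 groups of 3 libraries. ABCC3 ran closest to TSKU (r = 0.94), HDAC7 (0.93) and WWP1 (0.92), and ABCC4 to ALDH1A3 (0.95), PTGS1 (0.95) and TSPAN12 (0.95). ABCC2 ran closest to LMLN (0.96), ARHGEF37 (0.92) and MACC1 (0.91), and ABCG2 to C1orf112 (0.95), HACD3 (0.93) and CEP128 (0.93). ABCC5 ran closest to LPIN3 (0.94), ABCC10 to RBM25 (0.94) and ABCC1 to TP53BP1 (0.89). ABCC8, under 1 CPM on average, was left out.

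Of 39 other ABC family genes listed, 25 had a row and all were tested. Over the 6 drugs, 17.7% to 27.4% of all genes tested were called higher and 18.8% to 27.7% lower against day-0, the background for this list and those that follow. Against day-0, ND-646 raised 9 and lowered 5, TVB-3166 raised 9 and lowered 7, bleomycin raised 7 and lowered 6, doxorubicin raised 10 and lowered 5, palbociclib raised 8 and lowered 6 and alisertib raised 8 and lowered 6, so the lowered counts lay near that background. ABCC11, a further exporter of organic anions and nucleotide drugs, averaged 41.8 ± 9.41 CPM in untreated day-0 cells and 302 ± 11.5 CPM with TVB-3166. It rose by 2.85 with TVB-3166, 2.13 with palbociclib, 1.91 with ND-646, 1.56 with alisertib and 1.37 with doxorubicin, while bleomycin gave 0.42. ABCA1, which loads cholesterol onto apolipoproteins, rose by 3.28 with ND-646 and 2.32 with TVB-3166, and ABCG1, which exports cholesterol to lipoproteins, by 2.96 and 2.44. ABCA1 also rose with palbociclib (1.90), bleomycin (1.57) and doxorubicin (1.19), the last lost without untreated day-0 replicate 2 (0.95) or doxorubicin replicate 1 (0.98). ABCA4, a retinoid flippase, rose by 2.93 with palbociclib and 2.25 with doxorubicin. TAP1, which with TAP2 pumps peptides for antigen presentation, rose with bleomycin (1.27) and doxorubicin (1.12), and gave 0.24 with ND-646 and 0.22 with TVB-3166. Mitochondrial ABCB8 and lysosomal ABCB9 fell with all 6 drugs.

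**Figure D5:**
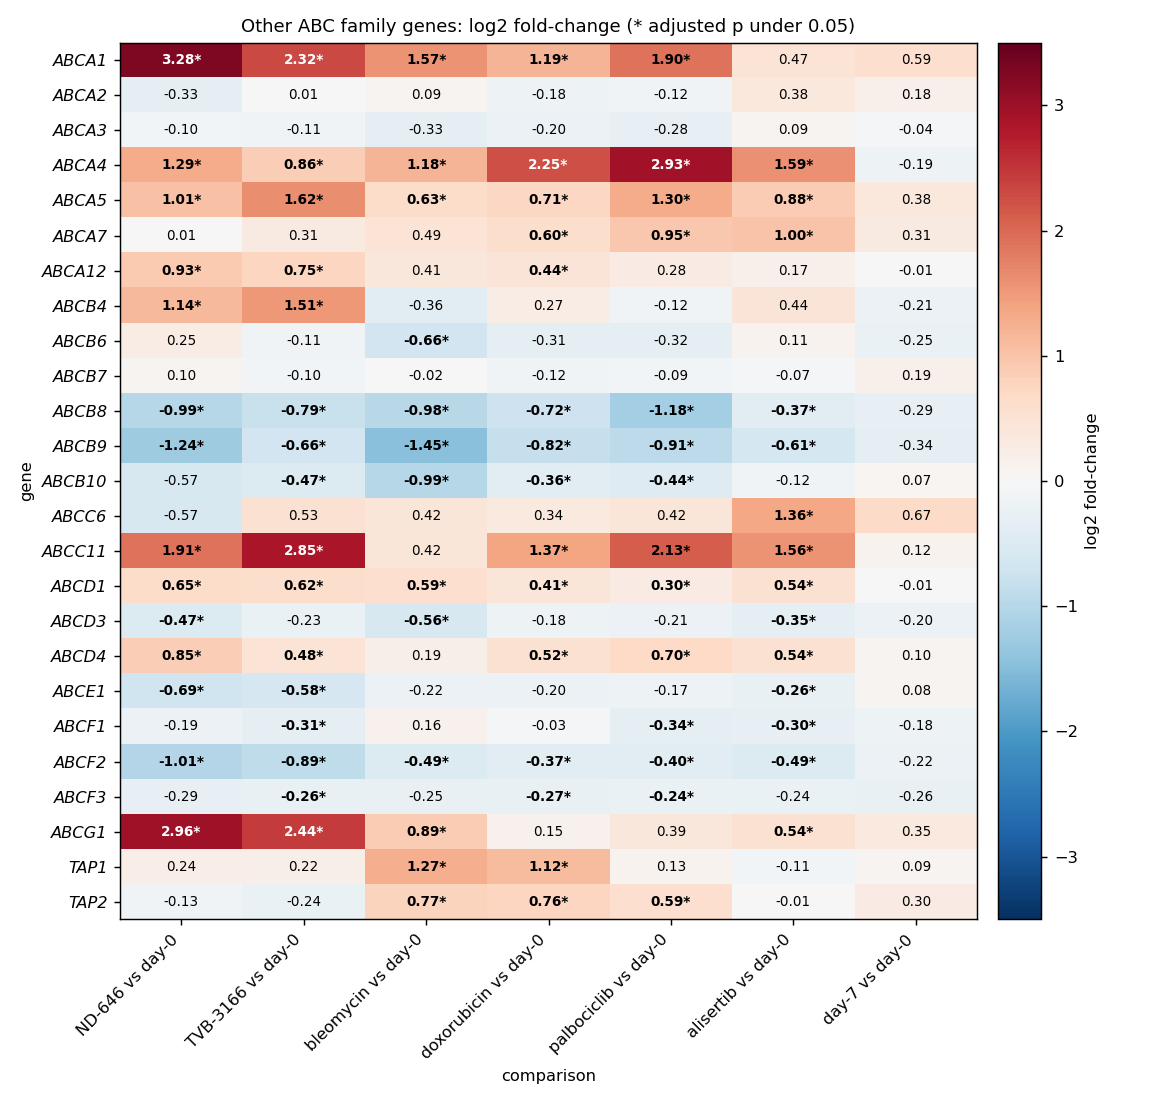
Log2 fold-changes of the 25 other ABC family genes tested (rows) against untreated day-0 cells (columns: 6 drugs and untreated day-7), with an asterisk where the edgeR adjusted p was under 0.05. ABCA1 and ABCG1 rose most with ND-646 and TVB-3166, ABCC11 reached 2.85 with TVB-3166, and no gene was called in untreated day-7 cells.

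Among genes of glutathione supply, those of its first enzyme rose. GCLM and GCLC encode the modifier and catalytic subunits of glutamate-cysteine ligase, the rate-limiting enzyme of glutathione synthesis. GCLM rose with all 6 drugs against day-0, by 1.81 with ND-646, 1.59 with bleomycin, 1.27 with TVB-3166, 1.26 with doxorubicin, 0.94 with alisertib and 0.85 with palbociclib. GCLC rose with 5, by 1.48 with ND-646 and 0.93 with TVB-3166, and gave 0.31 with alisertib. Of all 16 glutathione genes tested, against the same background of 17.7% to 27.4% higher and 18.8% to 27.7% lower, ND-646 raised 3 and lowered 4, TVB-3166 raised 4 and lowered 5, bleomycin raised 3 and lowered 8, doxorubicin raised 3 and lowered 9, palbociclib raised 3 and lowered 8 and alisertib raised 2 and lowered 6. GSTM4, a glutathione transferase, fell by 1.03 with ND-646 and by 1.03 with bleomycin. GSS, the second enzyme of glutathione synthesis, fell by 1.02 with ND-646.

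Drug uptake carriers were split between rises and falls, with 7 of 15 in the table. SLC29A1, the main equilibrative nucleoside carrier, fell with all 6 drugs against day-0, by 1.76 with ND-646, by 1.23 with TVB-3166, by 1.04 with palbociclib, by 0.98 with bleomycin, by 0.68 with doxorubicin and by 0.38 with alisertib, the last lost without alisertib replicate 2 (-0.32). SLCO4A1, an organic anion uptake carrier, fell by 2.35 with palbociclib and by 1.51 with TVB-3166. SLCO2A1, the prostaglandin uptake carrier, rose with palbociclib (1.83), doxorubicin (1.62), bleomycin (1.57) and TVB-3166 (1.03). For TVB-3166 the SLCO2A1 call was lost without TVB-3166 replicate 2 (1.00) or 3 (0.96). ND-646 raised 2 and lowered 3 of the 7, TVB-3166 raised 3 and lowered 4, bleomycin 2 and 4, doxorubicin 2 and 3, palbociclib 2 and 4 and alisertib 2 and 2, where 17.7% to 27.4% of all genes tested were called higher and 18.8% to 27.7% lower.

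Of the 8 genes in the table for other routes of export or sequestration, 7 or 8 were tested per drug against day-0, and ND-646 raised 2 and lowered 0, TVB-3166 2 and 0, bleomycin 3 and 1, doxorubicin 3 and 0, palbociclib 3 and 1 and alisertib 1 and 2. SLC22A4, a carnitine-family carrier, rose by 2.01 with doxorubicin, 1.66 with bleomycin and 1.45 with palbociclib and was too low to be tested with ND-646, TVB-3166 or alisertib. Among 12 regulators of transporter genes, ND-646 raised 3 and lowered 2, TVB-3166 raised 4 and lowered 2, bleomycin 7 and 1, doxorubicin 6 and 1, palbociclib 4 and 4 and alisertib 2 and 3. For both lists the shares over all genes tested were 17.7% to 27.4% higher and 18.8% to 27.7% lower. NFE2L2, which encodes the factor NRF2 that acts through antioxidant response elements, rose with ND-646 (0.55), bleomycin (0.51) and doxorubicin (0.49) and gave 0.23 with TVB-3166, 0.13 with palbociclib and 0.05 with alisertib. KEAP1, which marks NRF2 for degradation, rose with TVB-3166 (0.28), fell by 0.61 with palbociclib and by 0.38 with alisertib, and gave 0.37 with ND-646. FOXO3, a forkhead factor, rose by 1.48 with bleomycin, and AHR, the xenobiotic receptor, rose by 1.12 with ND-646. In untreated day-7 cells none of these lists had a called gene against day-0.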

How the data were processed

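RNA was sequenced from 24 SKBR3 libraries in 8 groups of 3, grouped by the labels. The deposited values are raw read counts per gene. Per the labels and the study's methods, the authors aligned reads with HISAT2 to GRCh37, counted with StringTie and tested with DESeq2; the counting settings and strand use are not given in the sources used here. The labels name a stranded mRNA kit and the study's methods a stranded total RNA kit. Every one of the 14493 genes had a count of at least 1 in every library, and a gene without a row was not analysed here.

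Each comparison was fitted with edgeR 4.0.16 (quasi-likelihood test, filterByExpr, TMM scaling) in R 4.3.3 on the libraries compared, except those between drug classes and the order of levels, which used all 24 libraries. A gene was called at a Benjamini-Hochberg adjusted p under 0.05 over all genes tested, two-sided, and 8 of 8 transporters with a row were tested in each comparison. With 3 against 3 libraries an exact permutation test of a single gene cannot go below 0.1 and was not used. CPM were TMM-scaled over the 14078 genes that pass in 24 libraries, and RPKM used the union of GENCODE exons on GRCh37. Intervals are 95%. The transporters and gene lists were chosen with earlier results of these data known. The text names every transporter, with the heat map giving its change in each comparison with an untreated group, and, from the lists, fixed genes and those with the largest change past the threshold and 2-fold; ABCB8 and NCR3LG1 were named after their values were seen. Alternatives were DESeq2 1.42.0, RLE scaling, total counts alone, every row kept, a minimum of 10 counts throughout, a joint fit of 24 libraries, a replicate block, a 2-fold rule with unadjusted p, and leaving out each library. The edgeR step was tested on simulated data.

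Whether replicate numbers pair libraries was checked from the correlation of deviations from group means. This was done for comparisons between single groups and not for those between drug classes. All 3 pairs exceeded 0.1 for TVB-3166 against ND-646 (0.380, 0.213 and 0.292), bleomycin against day-7 (0.142, 0.117 and 0.107) and alisertib against day-7 (0.155, 0.218 and 0.105), and the numbers were taken as pairing there from the data alone.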

Additional observations from a re-analysis of the deposited data

How the results depend on the processing

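Of the transporter results, 0 changed direction with a call under any alternative. RLE scaling left 127 of 128 as they were, no filter 126 of 128, DESeq2 122 of 127, total counts alone 122 of 128, the filter of 10 counts in every library 117 of 119, the fit to all 24 libraries 101 of 112 (7 lost, 4 gained) and the replicate block 117 of 128, where 11 were gained and 0 lost. Of 912 results with a single library left out, 34 lost a call and 28 gained one.

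The rule of a 2-fold change at unadjusted p under 0.05 moved the number of transporters called against day-0 to 3 with bleomycin, 3 with doxorubicin, 3 with palbociclib and 2 with alisertib, and against day-7 to 3 with bleomycin, 2 with doxorubicin, 2 with palbociclib and 1 with alisertib. It gave 2 for FASTIS against other drugs and 0 for DNA damage against kinase inhibitors. That rule drops the calls under 2-fold by construction. For the other alternatives, and with a library left out, the share of all genes called was not taken, so those counts have no background. With all 24 libraries in 1 fit the count was 3 for doxorubicin against day-7 and 1 for TVB-3166 against ND-646, and the cause was not tested. DESeq2 gave 1 for untreated day-7 against day-0. With a replicate block the counts were 1 for untreated day-7 against day-0, 5 for alisertib against day-7 and 2 for TVB-3166 against ND-646, and 7 for TVB-3166 and 6 for palbociclib against day-7. Where fewer than 3 correlations exceeded 0.1, the numbers were not taken as pairing. There the block gained ABCC8 with ND-646, ABCC4 with TVB-3166 and ABCC10 with palbociclib against day-7. In these comparisons each treated library still deviated most like the untreated library of its own number.

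With 1 library left out the counts ran from 3 to 7 for ND-646, 6 to 7 for TVB-3166, 6 to 6 for bleomycin, 4 to 6 for doxorubicin, 5 to 5 for palbociclib, 3 to 6 for alisertib and 0 to 0 for untreated day-7 cells against day-0. Against day-7 they ran from 3 to 7 for ND-646, 5 to 6 for TVB-3166, 6 to 7 for bleomycin, 4 to 6 for doxorubicin, 5 to 6 for palbociclib and 2 to 4 for alisertib. They ran from 0 to 2 for TVB-3166 against ND-646, 5 to 8 for FASTIS against other drugs and 2 to 4 for DNA damage against kinase inhibitors. Scaling by total counts moved the median of all genes by at most -0.22 on the log2 scale, for ND-646 against day-7. RLE scaling left 5 of the neighbour steps in the order of levels. ABCC8 had 9 to 56 reads per library, and the effect of depth on its calls was not tested.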
